A study of Rattus norvegicus with 47 samples.

Results

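Of 8 frozen carcinomas from rat liver, the 3 described here lacked the high Glul mRNA of the others, and they were set against the 6 frozen adenomas of the same study. Glul encodes glutamine synthetase, a target of Wnt/beta-catenin signalling. The 3 carcinomas were selected on their measured Glul level, a log2 signal below 11, so their Glul level is a description and was not tested. They are 3 of 47 arrays in the series, and the 9 compared arrays were fitted together with 5 nodules, 5 other carcinomas and 7 arrays of surrounding liver.

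All lesions came from male Han-Wistar rats that received one dose of 250 mg/kg N-nitrosomorpholine, a liver carcinogen, at an age of 4 weeks. After 3 weeks of recovery they drank phenobarbital at 50 mg/kg/day for up to 17 months, and the surrounding liver had the same exposure. Tissue was snap frozen, and total RNA was hybridised to 3' expression arrays. The compared carcinomas came from animals 10, 21 and 23, 1 from each. The adenomas came from animals 14 and 23, 3 from each, so p-values measure the spread between these arrays and several lesions share an animal. The labels of the carcinoma of animal 10 conflict: its group label names beta-catenin and its tissue label does not, and its Glul level was the lowest of the 3. For 3 of the 4 arrays titled as animal 21, including its carcinoma and its surrounding liver, a second animal field gave other numbers, and the animal in the title was used.

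In normal liver, Glul is restricted to the hepatocytes around the central vein, where Wnt signals keep beta-catenin active. Hepatocellular tumours with an activating beta-catenin mutation usually make glutamine synthetase throughout, and phenobarbital favours the outgrowth of such tumours in mice. Bex1 is a small brain-expressed X-linked protein, and Krt19 is a keratin of bile duct and progenitor epithelium. In whole tissue, fewer cells of a type and less RNA per cell cannot be told apart.

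Glul, the gene that chose the arrays, read 9.26, 9.56 and 10.39 log2 units in the carcinomas of animals 10, 21 and 23. The adenomas ran from 8.40 through a median of 9.67 to 10.35, and the 7 surrounding arrays from 9.91 to 10.80. The carcinomas overlapped the adenomas, and the carcinoma of animal 23 also overlapped the surrounding liver. The other 5 carcinomas lay between 12.69 and 13.32, which leaves no carcinoma between 10.39 and 12.69, on either side of the limit of 11. Axin2, a feedback inhibitor of Wnt signalling, read 5.70, 5.12 and 5.88 in the carcinomas, from 4.36 to 5.38 in the adenomas and from 7.48 to 8.05 in the other carcinomas. Averaged over the 17 measured genes of a list of Wnt targets and pericentral genes, the carcinomas lay between 7.22 and 7.42, the adenomas between 6.70 and 7.86, and the other carcinomas between 8.58 and 9.65. This list shares Glul and its pathway with the rule, so it was given no test.

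**Figure D1:**
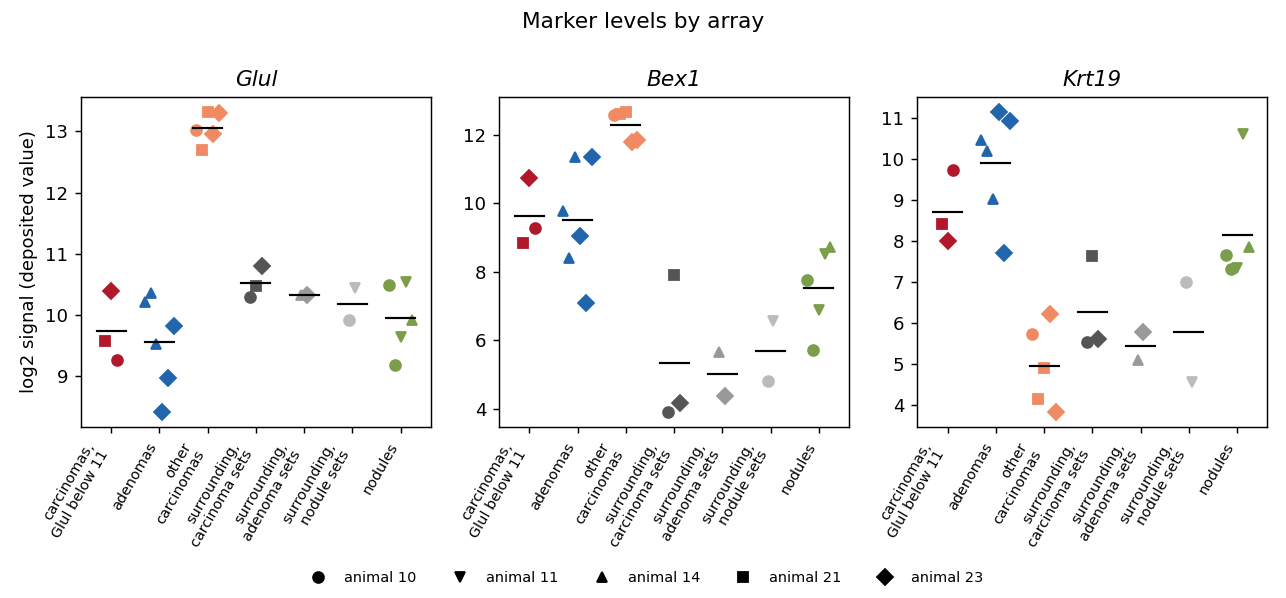
Log2 signal of Glul, Bex1 and Krt19 in each frozen array (points, shaped by animal) with the group mean (line). The 3 carcinomas overlapped the adenomas in all 3 genes, while the other carcinomas had higher Glul (12.69 to 13.32) and lower Krt19 (3.83 to 6.22).

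Bex1 read 9.27, 8.85 and 10.76 log2 units in the carcinomas, against 7.09, 9.42 and 11.37 (lowest, median and highest) in the adenomas. The groups overlapped, and all 3 carcinomas and 5 of 6 adenomas lay above every surrounding array. Minus the surrounding array of its labelled control set, Bex1 stood at 5.38, 0.94 and 6.58 in the carcinomas, against 2.74 to 7.01 in the adenomas. The change with the control set as a block, as described below, was 0.16 ± 1.40 (SE; adjusted p = 1 in limma). The surrounding array of animal 21 carried 7.91 log2 units of Bex1 and 7.64 of Krt19, the highest of all 7 for both genes. Leaving out 1 array at a time gave Bex1 changes from -0.74 to 1.47.

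Krt19 read 9.72, 8.42 and 7.99 log2 units in the carcinomas, against 7.69, 10.32 and 11.14 in the adenomas. Again the groups overlapped. The change was -2.01 ± 1.35 (SE; adjusted p = 1 in limma), and it ranged from -2.77 to -1.08 over the fits that leave out 1 array. The 5 other carcinomas read 3.83 to 6.22, below every one of the 9 compared lesions.

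The comparison asks what separates the carcinomas with Glul below the limit from adenomas, whose Glul also lay below it. Every lesion has a labelled control set, a group of lesions that share 1 array of surrounding liver. The 3 carcinomas belong to 3 sets and the adenomas to 2 others, no set holds both, and only animal 23 provided both kinds of lesion. The change of each gene was therefore measured relative to the surrounding array of each lesion's own set, with the set as a block in the limma fit.

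With that block, 0 of 14216 genes (0%) passed an adjusted p of 0.05 in limma in either direction, and 546 had an unadjusted p under 0.05. That count is below the share of 0.05 of all genes expected with no true difference. Of these 546, 214 were higher in the carcinomas and 332 lower. The lowest adjusted p was 0.667, and the median standard error of a gene was 0.21 log2 units. Without any block, 533 genes (3.75%) were higher in the carcinomas and 1069 (7.52%) lower at an adjusted p of 0.05. With the animal as the block, 206 (1.45%) were higher and 439 (3.09%) lower. Of the calls, 573 were made both without a block and with the animal block, all with the same sign, which is 35.8% of the calls without a block and 88.8% of those with the animal block.

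Most of the difference seen without a block was also present in the liver around the lesions. Of the 1602 genes called without a block, 1557 differed in the same direction between the 3 surrounding arrays of the carcinoma sets and the 2 of the adenoma sets. That is 97.2% of the calls, against 73.1% of all genes. The median ratio of the surrounding difference to the lesion difference was 0.68 over these genes, with quartiles of 0.45 and 0.87. Their median change was 0.58 log2 units in size without a block and 0.19 in the same direction with the control set as the block. Across all genes the lesion and surrounding differences had a Pearson r of 0.70 and a Spearman rho of 0.61. Genes are not independent replicates, so no p is given. Of the 645 genes called with the animal as the block, 586 also shared the sign of the surrounding difference. That block does not separate control sets within an animal.

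**Figure D2:**
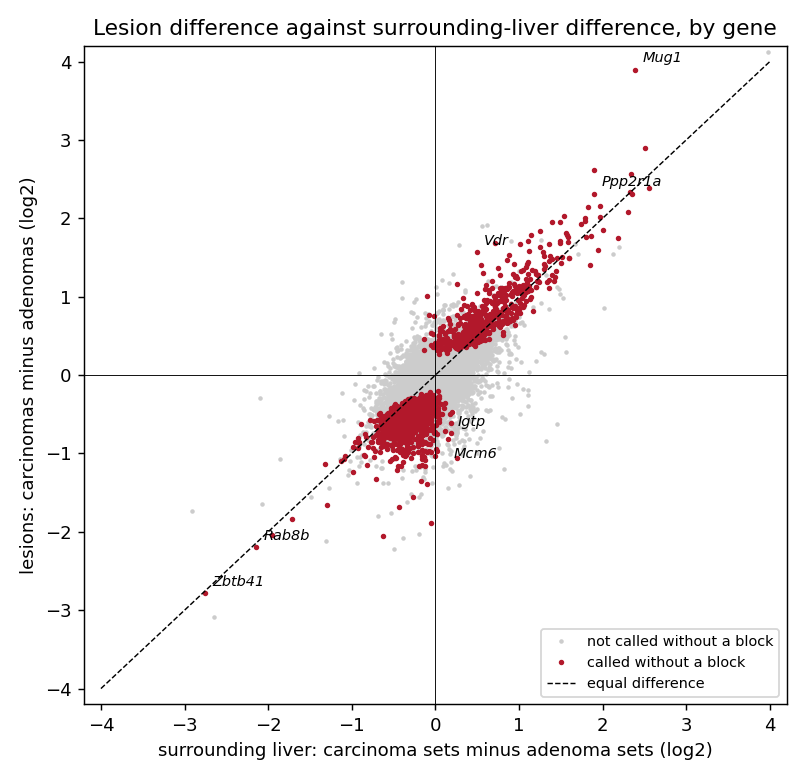
Each point is a gene: the mean log2 difference of the 3 carcinomas minus the 6 adenomas (vertical) against that of the surrounding arrays of the carcinoma sets minus those of the adenoma sets (horizontal). Genes called without a block (red) mostly share the sign of the surrounding difference, with a median ratio of surrounding to lesion difference of 0.68 (1 is the dashed line), and Mug1, Ppp2r1a, Zbtb41 and Rab8b are among them; Mcm6, Igtp and Vdr are labelled for comparison.

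The following 4 genes, chosen after their values were seen, are among those with the widest gaps. Mug1, a secreted protease inhibitor of rat liver, read 10.60, 10.56 and 10.34 log2 units in the carcinomas, against 5.57, 6.52 and 8.03 (lowest, median and highest) in the adenomas. It also read 11.17, 11.08 and 11.36 in the surrounding liver of the carcinoma sets, against 8.67 and 8.96 in that of the adenoma sets. The surrounding difference of 2.39 made up most of the lesion difference of 3.90. With the control set as the block the change was 1.38 ± 0.77 (adjusted p = 1 in limma).

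Ppp2r1a, a scaffold subunit of protein phosphatase 2A, read 9.74, 9.75 and 9.93 in the carcinomas, against 7.22, 7.54 and 7.67 in the adenomas. Its surrounding values were 9.53, 9.51 and 9.49 in the carcinoma sets, against 7.54 and 7.68 in the adenoma sets. A step of similar height was therefore present in lesions and surrounding liver. It was also present in lesions that were not compared: the other carcinomas read 9.70 to 9.86 and the nodules 7.64 to 7.88. The change with the control set as the block was 0.40 ± 0.14 (adjusted p = 1 in limma).

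In the opposite direction, Zbtb41, a zinc finger protein, read 3.28, 3.55 and 3.49 in the carcinomas, against 5.80, 6.30 and 6.40 in the adenomas. The surrounding liver read 3.46, 3.62 and 3.35 in the carcinoma sets, against 6.34 and 6.14 in the adenoma sets. A lesion difference of -2.78 thus met a surrounding difference of -2.76. Minus its own surrounding array, Zbtb41 stood at -0.18, -0.07 and 0.14 in the carcinomas, against -0.34 to 0.25 in the adenomas. The change with the control set as the block was 0.04 ± 0.20. Whether the low Zbtb41 signals of the carcinoma side exceed background was not tested. Rab8b, a small GTPase of membrane traffic, behaved in the same way, with a lesion difference of -2.20, a surrounding difference of -2.14 and a change of -0.13 ± 0.21.

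The surrounding arrays of animals 10 and 23 show the step within an animal. For Zbtb41 the surrounding liver of animal 23 read 3.35 in the carcinoma set and 6.14 in the adenoma set. In animal 10, it read 3.46 in the carcinoma set and 6.42 in the nodule set. Over all genes, the differences between the surrounding arrays of animal 23 and of animal 10 had a Pearson r of 0.54. For 88 genes the 3 surrounding arrays of carcinoma sets all lay above the 4 others, by more than 1 log2 unit in the mean, and for 4 genes all lay below. Of these 92 genes, 91 differed in the same direction between the compared lesions. What the surrounding arrays of the carcinoma sets share was not tested.

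**Figure D3:**
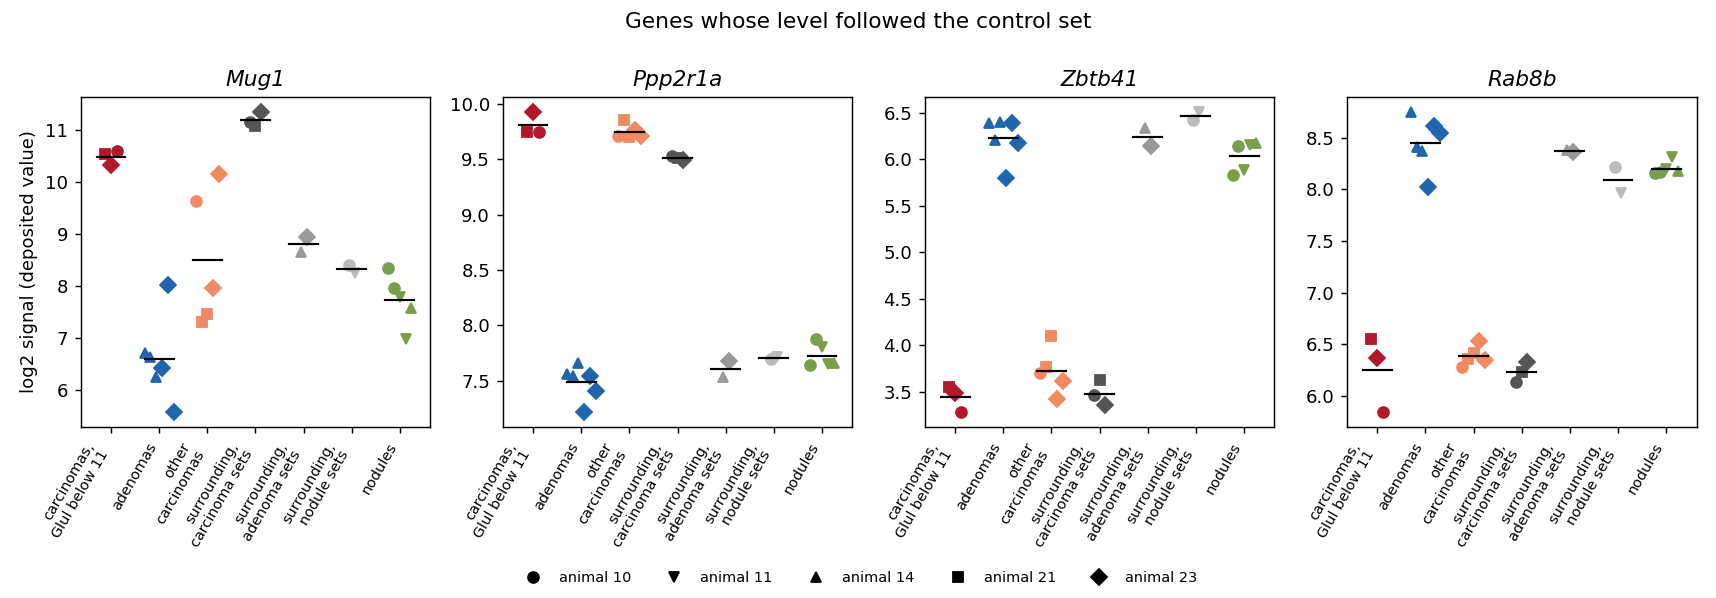
Log2 signal of Mug1, Ppp2r1a, Zbtb41 and Rab8b in every frozen array (points, shaped by animal) with the group mean (line). For Ppp2r1a, Zbtb41 and Rab8b the carcinomas stood with the surrounding liver of the carcinoma sets, and the adenomas and nodules with that of their own sets.

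A further 4 genes were also chosen after their values were seen. Crp, an acute phase protein, differed by 1.96 log2 units between carcinomas and adenomas and by 1.50 in the surrounding liver. The lipopolysaccharide binding protein gene Lbp differed by 2.57 and 2.34 in the same order, Acadsb, an acyl-CoA dehydrogenase of branched-chain amino acid breakdown, by 2.89 and 2.50, and the glutathione transferase gene Gstm2 by 2.62 and 1.90. Their changes with the control set as the block were 0.45 ± 0.37, 0.06 ± 0.48, 0.28 ± 0.43 and 0.70 ± 0.39, none past the threshold. They do not stand for their lists: the 19 measured acute phase genes, Crp and Lbp among them, had a median lesion difference of -0.26 and a median surrounding difference of -0.03, with 14 of 19 below 0 in the lesions. The 17 measured hepatocyte secretory and identity genes had medians of -0.02 and -0.04. Over the 20 genes with the widest non-overlapping differences that were called without a block, 10 in each direction, the ratio of surrounding to lesion difference had a median of 0.84.

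Some genes did not overlap between the carcinomas and the adenomas, whatever the surrounding livers did. For 685 genes all 3 carcinomas lay above all 6 adenomas as deposited, and for 1282 all lay below. After each lesion was set against its own surrounding array, 281 genes lay above and 310 below. The groups were apart by both measures in 50 genes above and 150 below, and no gene of either kind passed the adjusted test with the control set as the block. The following genes had the smallest raw p among those without overlap as deposited, and they are given as values.

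Among those lower in the carcinomas, Ube2l6, an enzyme that attaches the interferon-induced modifier ISG15, read 8.21, 8.25 and 8.23 log2 units in the carcinomas. The adenomas read 8.61, 8.67 and 8.91 (lowest, median and highest). Relative to its own surrounding liver each carcinoma was lower by more than any adenoma, at -0.86, -0.68 and -0.70, against -0.20 to 0.11. The change was -0.67 ± 0.13 (adjusted p = 0.667 in limma), and it stayed between -0.71 and -0.62 when 1 array was left out.

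Igtp, an interferon-induced GTPase that acts at vacuoles of intracellular parasites, read 7.37, 7.56 and 7.73 in the carcinomas, against 8.07, 8.28 and 8.57 in the adenomas. The change was -0.91 ± 0.20 (adjusted p = 1 in limma). The other carcinomas read 8.08 to 8.46 for Igtp, above all 3 carcinomas, whereas for Ube2l6 they read 8.07 to 8.42 and overlapped them. Within animal 23, the change of Igtp was -0.67 and that of Ube2l6 -0.62, each from 1 carcinoma and 3 adenomas. With the animal as the block both fell (adjusted p = 0.0209 each in limma), and both fell without a block (adjusted p = 0.00243 for Igtp and 0.00339 for Ube2l6).

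Nlrc5, the activator of MHC class I genes, read 5.26, 5.17 and 5.12 in the carcinomas, against 5.86 to 6.34 in the adenomas. Over the 16 measured genes of antigen presentation the median change was -0.40, beside -0.01 for all genes, and 13 members were below 0. Of the 16, 0 passed with the control set as the block. Nlrc5 fell with the animal as the block (adjusted p = 0.0267 in limma), 1 of 16 beside 3.09% of all genes, but its surrounding difference of -0.63 was most of its lesion difference of -0.90. B2m, the invariant chain of class I molecules, hardly varied, at 13.86, 13.90 and 13.88 in the carcinomas, against 13.73 to 13.95 in the adenomas. Cd74, the invariant chain of class II molecules, read 10.81, 10.15 and 10.37 in the carcinomas, against 9.53 to 11.68 in the adenomas.

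Genes of DNA replication and mitosis were mostly lower in the carcinomas than in the adenomas in the fit with that block. Of 26 measured proliferation genes, 24 had a change below 0 with the control set as the block, with a list median of -0.62, beside -0.01 for all genes. As deposited the median lesion difference was -0.37, and the surrounding liver differed by 0.15 in the opposite direction. Of these 26, 0 passed the adjusted test and 7 had an unadjusted p under 0.05, beside 546 of 14216 genes. With the animal as the block 5 fell and 0 rose, beside 3.09% of all genes that fell. Without a block 0 of 26 passed.

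Mcm6, a subunit of the replicative helicase, read 6.17, 7.07 and 6.72 log2 units in the carcinomas, against 7.53, 7.80 and 8.12 in the adenomas. Each carcinoma exceeded its own surrounding liver, by 0.71, 0.65 and 1.63, and the adenomas exceeded theirs by 1.85 to 2.75. Mcm6 was thus above surrounding liver in all 9 lesions and higher in the adenomas. The change was -1.43 ± 0.42 (adjusted p = 1 in limma), from -1.70 to -1.07 when 1 array was left out. With the animal as the block Mcm6 fell by 1.59 (adjusted p = 0.0248 in limma), and without a block the adjusted p was 0.0860.

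Cdk1, the kinase that drives entry into mitosis, read 6.71, 6.19 and 6.27 in the carcinomas, against 6.79, 7.24 and 7.81 in the adenomas. The carcinomas exceeded their surrounding liver by 1.26, 0.87 and 2.26, against 2.36 to 3.37 in the adenomas. The change was -1.41 ± 0.44. Mcm5, another helicase subunit, had a change of -0.84 ± 0.29, the spindle protein gene Nusap1 of -1.20 ± 0.44 and the mitotic kinesin gene Kif20a of -0.71 ± 0.33, all with an adjusted p of 1 in limma. These 4 and Mcm6 are the 5 that fell with the animal as the block.

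Mki67, the source of the Ki-67 antigen, read 6.74, 6.27 and 6.29 in the carcinomas, against 6.31, 6.56 and 6.75 in the adenomas, an overlap of the levels as deposited. Above their surrounding liver, the carcinomas stood by 1.76, 1.10 and 2.37 and the adenomas by 2.37 to 2.62. The surrounding liver of the carcinoma sets read 4.98, 5.17 and 3.93 and that of the adenoma sets 3.94 and 4.17. The change in Mki67 of -0.98 ± 0.44 thus went with surrounding arrays of animals 10 and 21 that were higher than the rest of those 5, and within animal 23 it was -0.13. The same surrounding arrays were the higher ones for Cdk1, at 5.45, 5.33 and 4.01 in the carcinoma sets, against 4.42 and 4.44 in the adenoma sets, and likewise for Nusap1 and Kif20a. For Mcm6 and Cdk1 the values within animal 23 were -0.92 and -0.72.

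Other members had smaller changes. Pcna, the replication clamp, had a change of -0.62 ± 0.22 and Top2a, the topoisomerase of chromosome segregation, of -0.52 ± 0.31. Birc5, which encodes the apoptosis inhibitor survivin, had a change of 0.10 ± 0.26 and the kinesin gene Kif23 of 0.22 ± 0.17, the 2 members above 0. Averaged over the list, the carcinomas read 6.02, 5.85 and 5.92, against 5.96 to 6.54 in the adenomas and 4.92 to 5.66 in the surrounding arrays.

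**Figure D4:**
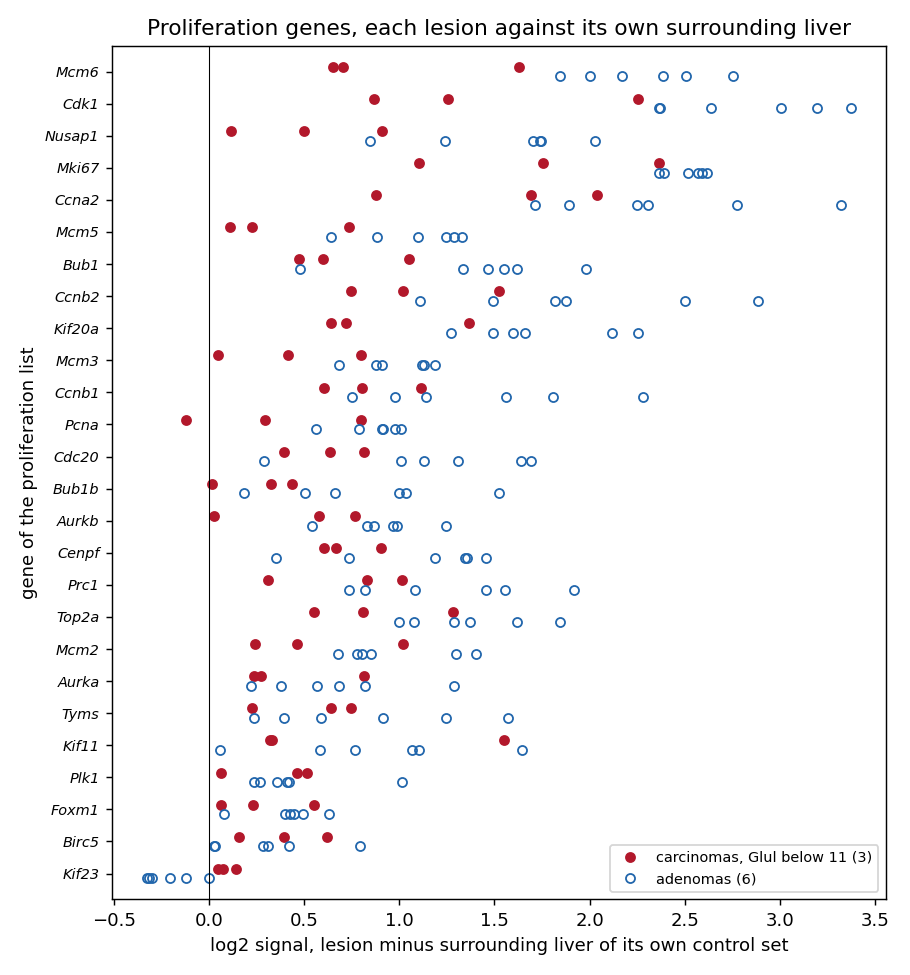
Log2 signal of the 26 proliferation genes in each of the 3 carcinomas (filled) and 6 adenomas (open) minus the surrounding liver of the lesion's control set. The carcinomas lie left of the adenomas for Mcm6 and Cdk1 without overlap, while Kif23 runs the other way.

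Zwilch, a kinetochore protein of the spindle checkpoint, and Zfp367, a zinc finger protein, were outside the list but among the 10 lower genes with the smallest p. Zwilch read 4.84, 4.76 and 4.80 in the carcinomas, against 5.02, 5.23 and 5.70 in the adenomas (change -1.05 ± 0.26). Zfp367 read 5.37, 6.07 and 5.90, against 6.48, 6.58 and 6.93 (change -1.35 ± 0.40). Both were above the surrounding liver in every carcinoma and more so in the adenomas.

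E2F factors bind the promoters of many replication genes. The 250 bases before the RefSeq start (GRCr8) of Mcm6, Mcm5 and Zfp367 are shown because these 3 genes of the lower group hold an E2F site there, in capitals (TTTCGCGC, TTTGGCGC or TTCCCGCC on either strand, which may overlap). The genes were chosen after their values were seen. The promoters lie at chr13:42404353-42404602 (minus strand), chr19:13488563-13488812 (plus strand) and chr17:970646-970895 (plus strand).
Mcm6: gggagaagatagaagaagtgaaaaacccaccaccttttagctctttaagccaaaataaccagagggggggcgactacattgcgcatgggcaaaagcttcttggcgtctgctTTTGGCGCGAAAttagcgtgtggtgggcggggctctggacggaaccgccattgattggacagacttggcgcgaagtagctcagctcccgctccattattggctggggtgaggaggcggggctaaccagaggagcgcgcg
Mcm5: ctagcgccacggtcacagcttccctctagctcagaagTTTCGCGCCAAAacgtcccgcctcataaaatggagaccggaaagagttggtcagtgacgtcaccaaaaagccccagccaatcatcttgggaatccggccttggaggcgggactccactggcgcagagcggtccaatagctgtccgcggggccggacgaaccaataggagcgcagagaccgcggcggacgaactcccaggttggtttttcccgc
Zfp367: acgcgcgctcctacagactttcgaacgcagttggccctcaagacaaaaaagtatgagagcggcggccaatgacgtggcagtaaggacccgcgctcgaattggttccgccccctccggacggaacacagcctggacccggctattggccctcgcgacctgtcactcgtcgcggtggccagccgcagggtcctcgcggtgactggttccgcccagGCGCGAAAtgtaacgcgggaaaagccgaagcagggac

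In Mcm6 and Mcm5 a pair of sites on opposite strands overlap, the first starting 139 bases before the start of Mcm6 and 213 before that of Mcm5. Other forms of an E2F site were not searched for or marked. The single site of the searched forms in Zfp367 starts 37 bases before its start. Such a site was found in 633 of 27457 promoters of this length (2.31%) and in 5 of 23 proliferation genes with a promoter sequence. A CCAAT box, searched on both strands, was found in 34.3% of all promoters and in 18 of these 23. A match is a description of letters only, and no binding was measured.

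The remaining lower genes named by the rule have varied roles. Med20, a Mediator subunit, had a change of -0.49 ± 0.14, Dync2i1, an intermediate chain of ciliary dynein, of -0.64 ± 0.19, and Dtd1, a D-aminoacyl-tRNA deacylase, of -0.44 ± 0.13. Flywch2 had a change of -0.65 ± 0.19, and Rnpep, an arginyl aminopeptidase, of -0.48 ± 0.14. None passed after adjustment with the control set as the block. All 5 fell both with the animal as the block and without a block.

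Among the genes higher in the carcinomas, Vdr, the vitamin D receptor, had its gap mostly in the lesions. It read 5.27, 5.64 and 4.33 log2 units in the carcinomas, against 3.19, 3.55 and 3.93 in the adenomas. Above the surrounding liver the carcinomas stood by 1.26, 1.56 and 1.05, against 0.01 to 0.75 in the adenomas, without overlap. The other carcinomas, at 3.62 to 4.08, lay below the 3. The Vdr levels of the adenomas and the surrounding liver are far below the array medians of 5.49 to 5.59, and whether they exceed background was not tested. The change was 1.10 ± 0.33 (adjusted p = 1 in limma), from 0.80 to 1.38 when 1 array was left out and 0.90 within animal 23. Vdr rose with the animal as the block (adjusted p = 0.0229) and without a block (adjusted p = 0.00116, both in limma).

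Cdkn2b, an inhibitor of the G1 cyclin-dependent kinases, read 5.57, 5.81 and 5.81 in the carcinomas, against 5.04, 5.24 and 5.33 in the adenomas. The other carcinomas also lay above the adenomas, at 5.80 to 5.92. The surrounding difference was 0.05 and the change 0.54 ± 0.17. Angptl2, a secreted angiopoietin-like protein, read 7.11, 5.73 and 6.35, against 5.02, 5.22 and 5.45 (change 0.83 ± 0.26). The carcinoma of animal 10 was the highest for Angptl2, and that of animal 21 lay below its own surrounding liver by 0.09. Eif4a2, a translation initiation helicase, had a change of 0.43 ± 0.14.

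For other higher genes the surrounding liver moved too. Arnt, the dimer partner of the aryl hydrocarbon receptor, read 5.86, 5.76 and 5.59 in the carcinomas, against 3.82, 4.05 and 4.15 in the adenomas, and its surrounding difference of 1.11 was more than its change of 0.67 ± 0.20. Nr1h2, the liver X receptor beta, had a lesion difference of 1.83, a surrounding difference of 1.25 and a change of 0.56 ± 0.18. Prrc2a had 0.87, 0.46 and 0.43 ± 0.13 in that order. The other carcinomas read 5.30 to 5.66 for Arnt and 8.04 to 8.19 for Nr1h2, above every adenoma. Pcgf2, a Polycomb ring finger protein, and Trim9, a ubiquitin ligase, had surrounding differences of -0.46 and -0.25 and lesion differences of 0.35 and 0.21 of the opposite sign, with changes of 0.72 ± 0.23 and 0.50 ± 0.16. Trim9 read 3.23 to 3.93 in the compared lesions, and whether this exceeds background was not tested.

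Markers of other cell types were read from lists for each type. Of 11 measured macrophage markers, 11 had a change below 0, with a median of -0.66. With the control set as the block 0 passed, and 4 had an unadjusted p under 0.05, beside 546 of 14216 genes. As deposited the median lesion difference was -0.44, with 2 of 11 above 0, and the median surrounding difference was 0.24. Averaged over the list, the carcinomas read 8.77, 8.54 and 8.16 and overlapped the adenomas. The adenomas of animal 14 read 9.34, 9.19 and 9.24, and those of animal 23 read 8.27, 8.42 and 8.75. With the animal as the block the median change was -0.38, with 2 of 11 above 0. What part these cells have in the other differences was not tested. Cd68, a lysosomal protein of macrophages, had a change of -0.74 ± 0.28 and Csf1r, the receptor for macrophage growth factors, of -0.92 ± 0.33. The complement gene C1qb had a change of -0.66 ± 0.25 with a lesion difference of 0.28, of the other sign. Cd163, a haemoglobin scavenger receptor, read 6.73, 7.08 and 6.05 in the carcinomas, against 7.14, 7.59 and 8.56 in the adenomas. It fell without a block (adjusted p = 0.0252 in limma), as did Mrc1, the macrophage mannose receptor (adjusted p = 0.0325 in limma), and Cd163 did not pass with the control set as the block (adjusted p = 1 in limma).

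Biliary and progenitor markers split the adenomas themselves. Averaged over the 14 measured genes, the carcinomas read 8.50, 6.59 and 6.47, against 9.22, 9.01 and 6.80 in the adenomas of animal 14 and 6.92, 6.90 and 8.11 in those of animal 23. On this average, the carcinoma of animal 10 and 3 adenomas were high and the other lesions near the surrounding liver, at 6.44 to 6.91. Single members differed. In adenoma replicates 3 and 4, Krt19 read 9.03 and 11.14, against 4.58 to 7.64 in the surrounding liver. Krt7 read 4.25 and 4.58 in these 2 adenomas, against 3.89 to 4.38 in the surrounding liver. Lcn2, a secreted lipocalin, read 10.96, 6.30 and 6.74 in the carcinomas, against 5.20 to 11.87 in the adenomas. The osteopontin gene Spp1 read 8.53, 6.12 and 4.85, against 5.48 to 10.95, and Krt7 read 7.58, 3.97 and 4.01, against 4.25 to 8.07. No biliary gene passed in any of the 3 fits. Epcam was high throughout, at 10.41 to 11.02 in the carcinomas and 10.27 to 11.65 in the adenomas.

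Stellate cell and fibroblast markers averaged 8.14, 7.46 and 8.06 in the carcinomas, against 6.80 to 8.47 in the adenomas. Col1a1 read 7.47, 6.57 and 7.74, against 5.47 to 7.77. Dcn, a matrix proteoglycan, was highest in the carcinoma of animal 23, at 11.10, with 8.12 and 8.39 in the other carcinomas and 6.76 to 9.21 in the adenomas. Of 18 measured members 0 passed in any of the 3 fits. Endothelial, lymphocyte and blood cell lists had medians of -0.22, -0.18 and -0.05, with 0 members called with the control set as the block.

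Lipogenic genes set the compared carcinoma of animal 10 apart from those of animals 21 and 23. Fasn, fatty acid synthase, read 9.11, 11.79 and 11.86 in the carcinomas of animals 10, 21 and 23, against 10.12 to 11.62 in the adenomas. Scd, which makes monounsaturated fatty acids, read 10.17, 13.18 and 13.02, against 11.29 to 13.21. Elovl6, an elongase of long-chain fatty acids, read 6.83, 10.29 and 9.72, against 7.36 to 10.73. In all 3 genes that carcinoma lay below every adenoma and below its own surrounding liver, while those of animals 21 and 23 lay above theirs. Among the carcinomas with high Glul, a beta-catenin labelled one of animal 23 was also low. It read 9.72 for Fasn, 10.65 for Scd and 6.88 for Elovl6. The rest of that group read 10.74 to 12.26, 12.96 to 13.55 and 8.46 to 10.40 in the same order. Of 16 measured genes, 12 had a change below 0, with a median of -0.41, and 0 passed with the control set as the block. As deposited the median lesion difference was 0.01, with 8 members above 0 and 8 below, beside a median surrounding difference of 0.27. Elovl5, another elongase, fell with the animal as the block and without a block, and Gpam, an enzyme of triglyceride synthesis, rose without a block.

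The enzymes that mark preneoplastic foci in rats were high in both kinds of lesion. Gstp1, the placental glutathione transferase, read 14.05, 14.11 and 14.02 in the carcinomas, against 13.35, 13.76 and 14.27 in the adenomas. Its surrounding liver read 13.11, 13.21 and 10.48 in the carcinoma sets, against 11.63 and 10.30 in the adenoma sets, and its change was -0.71 ± 0.61. Ggt1, gamma-glutamyltransferase, read 10.96, 10.34 and 10.07, against 9.08 to 10.77, with 5.35 to 8.72 in the other carcinomas. Akr1b8, an aldo-keto reductase, read 12.47, 12.32 and 12.31, against 11.83 to 12.92. The list of 19 measured focus and oncofetal markers had a median change of -0.09 and 0 calls in any of the 3 fits.

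Alb, the albumin gene that defines hepatocytes, read 15.03, 15.05 and 15.06 in the carcinomas, against 15.06 to 15.13 in the adenomas. With every array of the fit at 14.95 to 15.13, Alb was the brightest gene and may be at the ceiling of its probes, so like values do not show like hepatocyte content. Cyp2c11, a cytochrome P450 of male rat liver, read 8.56, 9.78 and 11.18 in the carcinomas, against 10.42, 11.00 and 13.01 in the adenomas. Minus their own surrounding liver the carcinomas stood at -4.17, -2.64 and -2.36 and the adenomas at -2.84 to -0.25, so the groups overlapped. The 15 measured male-predominant liver genes had a median lesion difference of -1.16 and a median surrounding difference of -0.55, with a median change of -0.10 with the control set as the block.

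Over the 25 tested lists, 0 members passed with the control set as the block. The medians outside the groups above lay between -0.14 for targets of NRF2, the oxidative stress regulator, and 0.22 for p53 targets and cell cycle inhibitors.

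**Figure D5:**
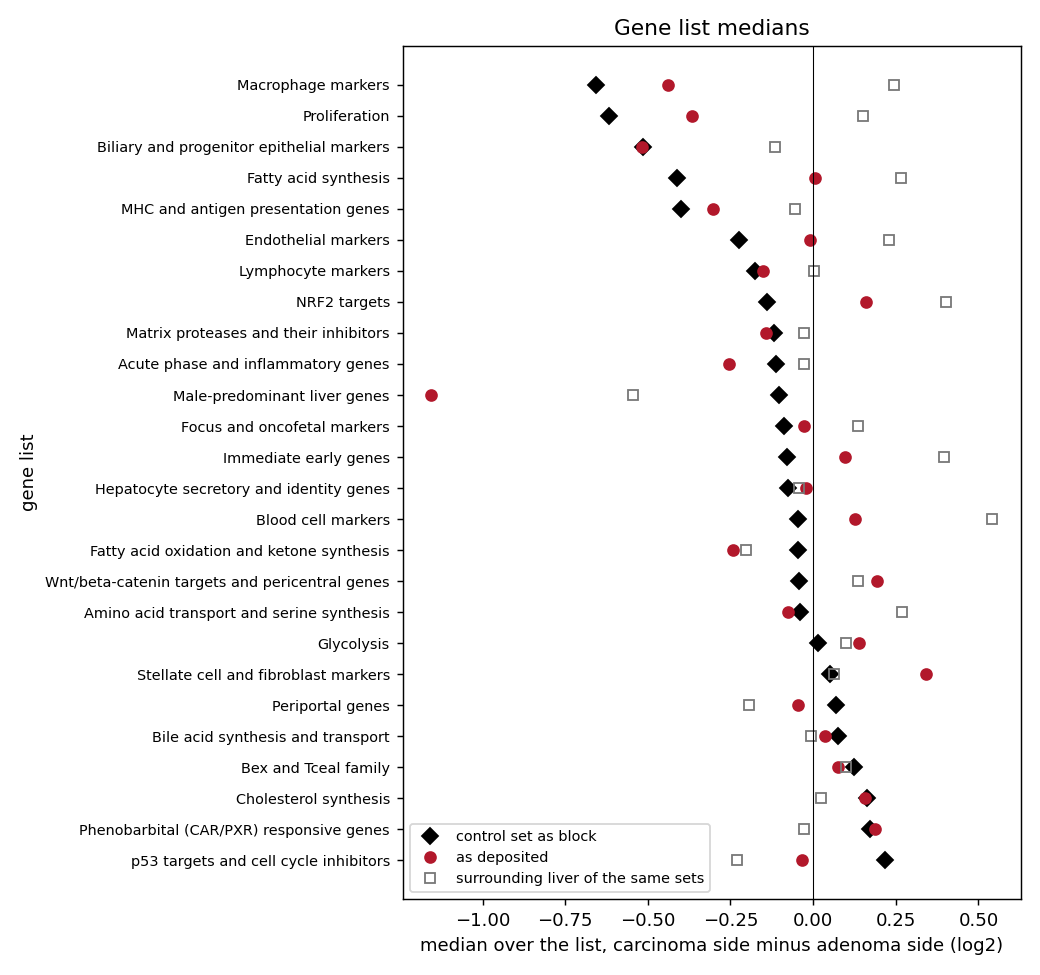
Median over each of 26 gene lists of the change with the control set as the block (diamonds), of the lesion difference as deposited (circles) and of the surrounding difference (squares), all carcinoma side minus adenoma side in log2 units. Macrophage (-0.66) and proliferation (-0.62) lists have the lowest block medians, and the male-predominant list has the widest gap between its lesion difference (-1.16) and its block median (-0.10).

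Taking all 8 carcinomas by label, whatever their Glul level, 0 of 14216 genes passed against the adenomas with the control set as the block, and 971 had an unadjusted p under 0.05. With the animal as the block 2197 genes were called and without a block 4008.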

How the data were processed

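Expression was measured on Affymetrix rat arrays in frozen liver lesions and surrounding liver. The authors deposited log2 signal values per probe set. How they were normalized is not stated in the labels, and array medians in the fit lay between 5.49 and 5.59. The number of arrays limits the precision.

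Of 31042 probe sets, 20826 had 1 gene symbol, 436 several and 9780 none. The brightest probe set stood for each of 14217 genes. The 19 FFPE arrays and 2 frozen arrays labelled C43 normal were not used. limma 3.58.1 in R 4.3.3 (eBayes with an intensity trend, Benjamini-Hochberg adjustment, threshold 0.05) was fitted to 26 arrays with the control set given by the labels as block, leaving out Glul, and tested on simulated data. Deviations of arrays of the same control set had a median correlation of 0.17 over 27 pairs, against -0.04 over 216 pairs of different animals and 0.11 over 23 pairs of 1 animal but different sets. Promoters are from RefSeq (GRCr8), and gene names from GEO's platform annotation.

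The carcinomas, the genes named and the 26 gene lists were chosen with earlier results of these data known. Named genes are Glul, Bex1 and Krt19, and the 10 genes in each direction with the smallest p whose values did not overlap; the first 2 measured genes of each list were also computed. Others named were chosen after their values were seen. Alternatives were the animal as block, no block, quantile normalization, a filter on dim genes, no trend, the mean of probe sets, fewer arrays, animal 23 alone, and each array left out in turn.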

Additional observations from a re-analysis of the deposited data

Results flagged for a closer look

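Among 97 groups of values checked, 4 held a single array far from the others, and chance flags about 1 in 20 groups. Lbp read 9.86 log2 units in adenoma replicate 1, of animal 14, with the next adenoma at 8.26. Trim9 read 3.23 in adenoma replicate 2, with the next at 3.65. Ube2l6 read 8.91 in adenoma replicate 4, of animal 23, with the next at 8.70, so the highest adenoma lies further from the carcinomas than the rest. The mean of the amino acid transport and serine synthesis list read 8.19 in adenoma replicate 6, with the next at 7.80.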

How the results depend on the processing

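With the control set as the block, the count of called genes in the comparison of the 3 carcinomas with the adenomas was 0 when only the compared arrays and their surrounding arrays were fitted, after quantile normalization, with a filter on dim genes, without an intensity trend, with the mean of probe sets, and with all 8 carcinomas by label. It was 0 at lowest and 0 at highest over 14 fits that leave out 1 array, in which 408 to 719 genes had an unadjusted p under 0.05 and the lowest adjusted p was 0.0926. The block decides the count: 645 genes were called with the animal as block in place of the control set and 1602 with no block. For all 8 carcinomas these counts were 2197 and 4008. Zbtb41 had a change of -2.41 with the animal as block and -2.78 with no block, against 0.04 with the control set, and Ly6e had 2.39 with no block, against -0.29. Of 88 named genes, 32 were called in the same direction with the animal as block and 34 with no block. In the other direction 1 and 2 were called. Some of the 88 were named because they were called with no block or did not overlap as deposited, which raises these counts. Over all 14216 genes the counts were 645 and 1602. Leaving out 1 array turned the sign of 0 to 13 of the 88, none of them called. Within animal 23 alone, the result of the fit with the control set as the block was kept by 56 of the 88 and not kept by 32.

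Each control set has 1 surrounding array, so its error enters the change of every lesion in the set, and 15 residual degrees of freedom remain. A missing call does not show that levels were equal. Only animal 23 holds both lesion kinds, and its values come from 1 carcinoma.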
